A study of Apis mellifera with 48 samples.

Results

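Resting drones and resting workers of the honey bee (Apis mellifera) were compared in the mushroom bodies of the brain. The comparison takes in the 24 of 48 bees whose labels give a collection time of 9 am, 12 drones and 12 workers, chosen by label alone. The remaining 24 bees, 12 drones and 12 workers caught at 3 pm while active, were used only to see whether a sex difference was also present then. Each library came from 1 bee, from polyadenylated RNA of mushroom bodies dissected out of a frozen head. The series is about reward-related behaviour that bees perform by instinct or learn, and the morning comparison shows how the brains of the 2 sexes differ when neither is at that task. All bees came from 3 colonies in Illinois, each with its own naturally mated queen, and the labels name no agent, transgene, age or patriline. Sex, caste and chromosome set divide these bees identically and cannot be told apart, nor can clock time and activity.

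Drones are males that develop from unfertilized eggs and carry a single set of chromosomes, while workers are females with both sets and develop from fertilized eggs. A drone does no work in the hive and flies to mate, whereas a worker nurses brood, builds comb and later forages. The mushroom bodies are centres of the insect brain built largely of intrinsic neurons called Kenyon cells, and in bees they receive olfactory and visual input and serve associative learning.

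Reads counted in genes were 13.5 ± 4.82 M (SD, n = 12) per drone and 15.1 ± 4.44 M per worker, with a range of 6.69 to 25.6 M over the 24 bees. The colonies were unequal between the sexes. Drones numbered 5, 1 and 6 from colonies 1, 2 and 3, and workers 5, 5 and 2, so colony was a term of the model. Each of the 6 sequencing pools with morning bees held 2 morning drones and 2 morning workers, beside bees of the afternoon. No pair of bees had counts close enough to be 1 library deposited more than once, as the smallest chi-square between them was 12.9 per degree of freedom. In 7 measures of library quality, such as the genes detected at equal depth and the share of reads with several alignments, no sex difference passed after adjustment over the 7 (permutation tests within colonies, 2-sided). The lowest adjusted p was 0.0895, equal for the share of the 10 most abundant genes and the share of reads with several alignments. The first was 8.74% ± 0.508 in drones and 8.22% ± 0.426 in workers. The second was 2.78% ± 0.241 in drones and 2.59% ± 0.0655 in workers. The files give gene identifiers without names, and 0 of 15314 identifiers matched the name table at hand. Genes are therefore written by identifier, with no function, position or sequence, and the tissue label could not be checked against marker genes.

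Resting drones and workers differed in about 1 in 4 genes. Of 10578 genes tested, 2636 (24.9%) passed an adjusted p of 0.05 in edgeR's quasi-likelihood test, with drones above workers in 1614 (15.3%) and workers above drones in 1022 (9.66%). Sizes were mostly modest. The median was 1.54-fold, and 1192 of the 2636 genes (45.2%) differed by less than 1.5-fold. The large differences were few. At least 2-fold, drones were above workers in 432 genes (4.08% of those tested) and workers above drones in 142 (1.34%). At least 4-fold the numbers were 77 and 39, at least 8-fold 23 and 11, and at least 16-fold 9 and 6. The extremes were 7.96 for GB50423, higher in drones, and -8.73 for GB44549, higher in workers, as log2 differences (drone minus worker). The value of GB44549 rests in part on worker 5 and was -7.41 without that bee.

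The balance between the sexes among the genes called depended on how libraries were scaled and on which bees were included. Drones were higher in 61.2% of the genes called with TMM scaling, in 53.2% with RLE size factors and in 51.6% with DESeq2. Over the fits that left out 1 bee with TMM the share ran from 51.9% (without worker 10) to 66.8% (without drone 6). It was above 61.2% only without drone 5, 6 or 7. The median log2 difference of all genes was 0.045 with TMM and 0.0046 with RLE. Of the 2636 genes, 1746 passed in each of the 24 fits that left out a bee, as did 352 of the 432 and 121 of the 142 genes at least 2-fold apart. Without colony 1, which supplied 5 bees of each sex, 690 genes passed, 488 higher in drones and 202 in workers.

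**Figure D1:**
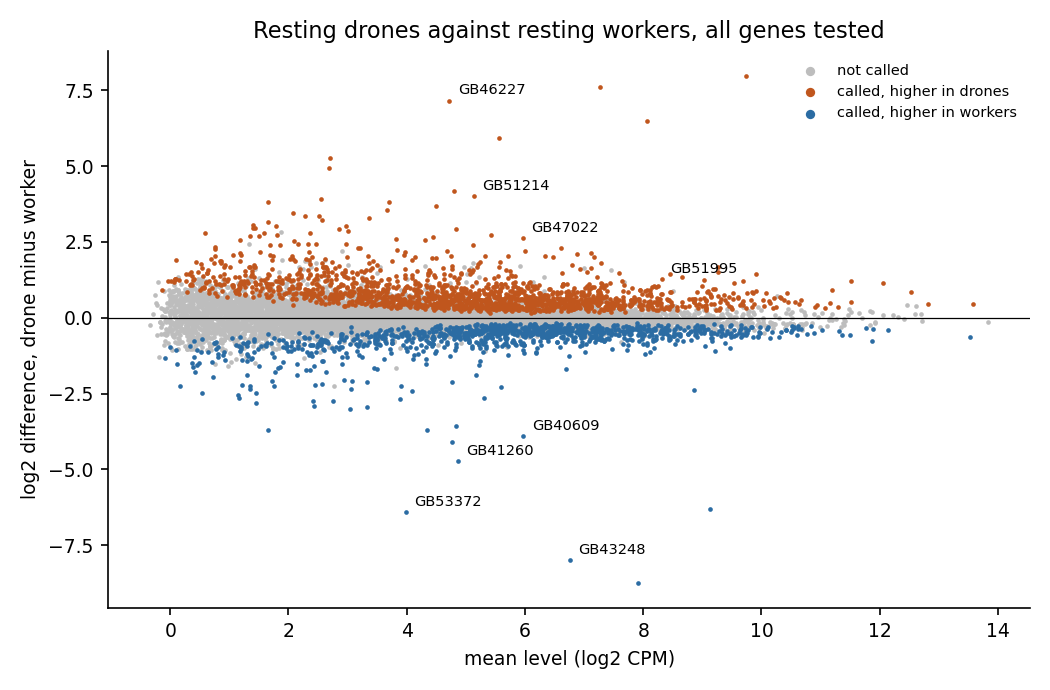
Each point is 1 of the 10578 genes tested in resting bees, with its mean log2 CPM (counts relative to the scaled library size) over 24 bees on the horizontal axis and its log2 difference, drone minus worker, on the vertical axis; colours mark the 1614 genes called higher in drones and the 1022 called higher in workers. The differences of 4-fold and more lie on both sides, and the called genes with many reads lie close to 0.

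The share of genes called rose with the level of the gene, while the size of the difference became smaller. With genes split into 5 equal classes by mean level, 14.0% were called in the lowest class, and in the following classes 19.3%, 21.1%, 31.5% and 38.8%. Genes called in the lowest class had a median difference of 2.26-fold, and those in the highest class of 1.42-fold. Higher counts allow smaller differences to pass the test, and what part of this trend is counting precision was not tested. Drones were higher in 67.9% of the genes called in the lowest class and in 52.9% of those in the highest. With RLE scaling these shares were 63.8% and 45.3%, so which sex led among abundant genes changed with the scaling. The at least 2-fold genes favoured drones in both classes, with 144 against 56 in the lowest and 50 against 12 in the highest.

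**Figure D2:**
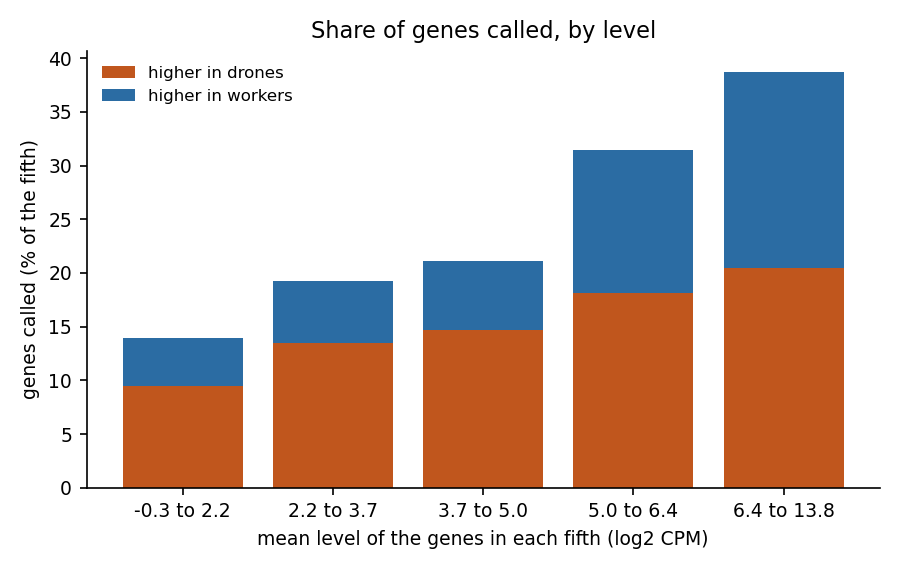
Genes tested in resting bees are split into 5 equal classes by their mean level, given in log2 CPM on the horizontal axis. The stacked bars give the percentage of each class called in favour of either sex, and their total height rises from 14.0% in the lowest class to 38.8% in the highest.

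As a part of all gene reads, the genes with large differences took little. The 432 genes at least 2-fold higher in drones held 3.59% ± 0.640 (SD, n = 12) of the reads of a drone, between 2.44% and 4.47%. In workers the same genes held 1.41% ± 0.148, between 1.07% and 1.68%. The 142 genes at least 2-fold higher in workers held 0.201% ± 0.0295 of the reads in drones. Among workers their median share was 0.535%, and 11 of the 12 held at most 0.756%, while worker 5 held 2.65%. These shares describe the genes chosen by the same comparison and carry no test. Few of the genes were near silence in the other sex, as 66 of the 432 had a worker mean under 1 CPM and 30 of the 142 a drone mean under 1 CPM. No gene had reads in all 12 bees of 1 sex and in 0 of the other. In bulk tissue, fewer cells of a type and less RNA per cell cannot be told apart, and this holds for every difference given here.

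The clearest genes on either side, by p, separated every drone from every worker. GB43248 ran from 0.259 to 2.73 CPM in the 12 drones, with a median of 0.621, and from 78.9 to 383 CPM in the 12 workers, with a median of 218. The groups lay far apart, as the highest count in a drone was 21 reads and the lowest in a worker 886 reads. Its log2 difference was -7.98 ± 0.36 (SE; edgeR adjusted p = 1.56e-13). GB41260 was between 46.6 and 70.6 CPM in workers, with a median of 51.6, and between 1.05 and 6.96 CPM in drones, with a median of 2.03. Workers were even, while the drones followed their colony: the 5 of colony 1 had 1.05 to 1.43 CPM, the 1 of colony 2 had 1.74 and the 6 of colony 3 had 2.32 to 6.96. The drones of colonies 1 and 3 did not overlap, and this contrast of colonies, seen in the values, was not tested. The log2 difference between the sexes was -4.73 ± 0.25 (edgeR adjusted p = 2.68e-12).

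On the drone side, GB47022 was between 47.1 and 155 CPM in drones, with a median of 105, and between 12.2 and 23.4 CPM in workers, with a median of 15.6. The lowest drone lay above the highest worker, and the log2 difference was 2.61 ± 0.17 (edgeR adjusted p = 7.83e-11). GB51995, a more abundant gene, was between 271 and 577 CPM in drones, with a median of 458, and between 126 and 244 CPM in workers, with a median of 186. Here too the sexes did not overlap, although the gap was narrow. The drones again split by colony, with 509 to 577 CPM in colony 1 and 271 to 457 CPM in colony 3. The log2 difference was 1.28 ± 0.10 (edgeR adjusted p = 1.14e-08). All 4 genes also passed within colony 1, at log2 differences of -7.60, -5.42, 2.63 and 1.42 in the order given.

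Complete separation was not limited to these. All 12 drones lay above all 12 workers in 123 genes (1.16% of those tested), and the reverse held in 47 (0.444%). All 170 were among the genes called, with median differences of 1.93-fold and 2.38-fold. The smallest difference with complete separation was 1.29-fold, and 56 of the 123 and 32 of the 47 were at least 2-fold apart. In the active bees of the afternoon, where the drones lay wholly above the workers in 1.16% of genes and wholly below them in 2.6%, the separation was seen again in 25 of the 123 and 29 of the 47.

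In the next 4 separated genes, those with the largest differences in each direction after the 4 above, the levels of the higher sex were spread more widely than in GB41260. GB46227 was between 2.93 and 231 CPM in drones, with a median of 19.6, and between 0 and 1.01 CPM in workers, of which 3 had no read. Its log2 difference was 7.15 ± 0.85 (SE; edgeR adjusted p = 2.39e-06), and without drone 3, the highest, it was 6.42. GB51214 was between 15.4 and 239 CPM in drones, with a median of 45.2, and between 1.15 and 9.14 CPM in workers, with a median of 3.96. The single drone of colony 2, drone 6, had the 239 CPM, and no other drone exceeded 98.5. The log2 difference of GB51214 was 4.01 ± 0.43 (edgeR adjusted p = 5.91e-07). It was 3.41 without drone 6 and 2.97 within colony 1.

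GB53372 was between 6.00 and 90.5 CPM in workers, with a median of 17.9, and between 0.0648 and 1.32 CPM in drones, with a median of 0.365. In reads, that was 51 to 1792 per worker and 1 to 14 per drone. Its log2 difference was -6.40 ± 0.53 (edgeR adjusted p = 1.48e-08), and without worker 11, the highest, it was -5.60. GB40609 was between 25.5 and 257 CPM in workers, with a median of 123, and between 1.43 and 9.18 CPM in drones, with a median of 4.93. Workers of colony 3 were lowest, at 25.5 and 29.9 CPM, and those of colony 2 had 104 to 257 CPM. The log2 difference was -3.90 ± 0.41 (edgeR adjusted p = 5.00e-07).

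**Figure D3:**
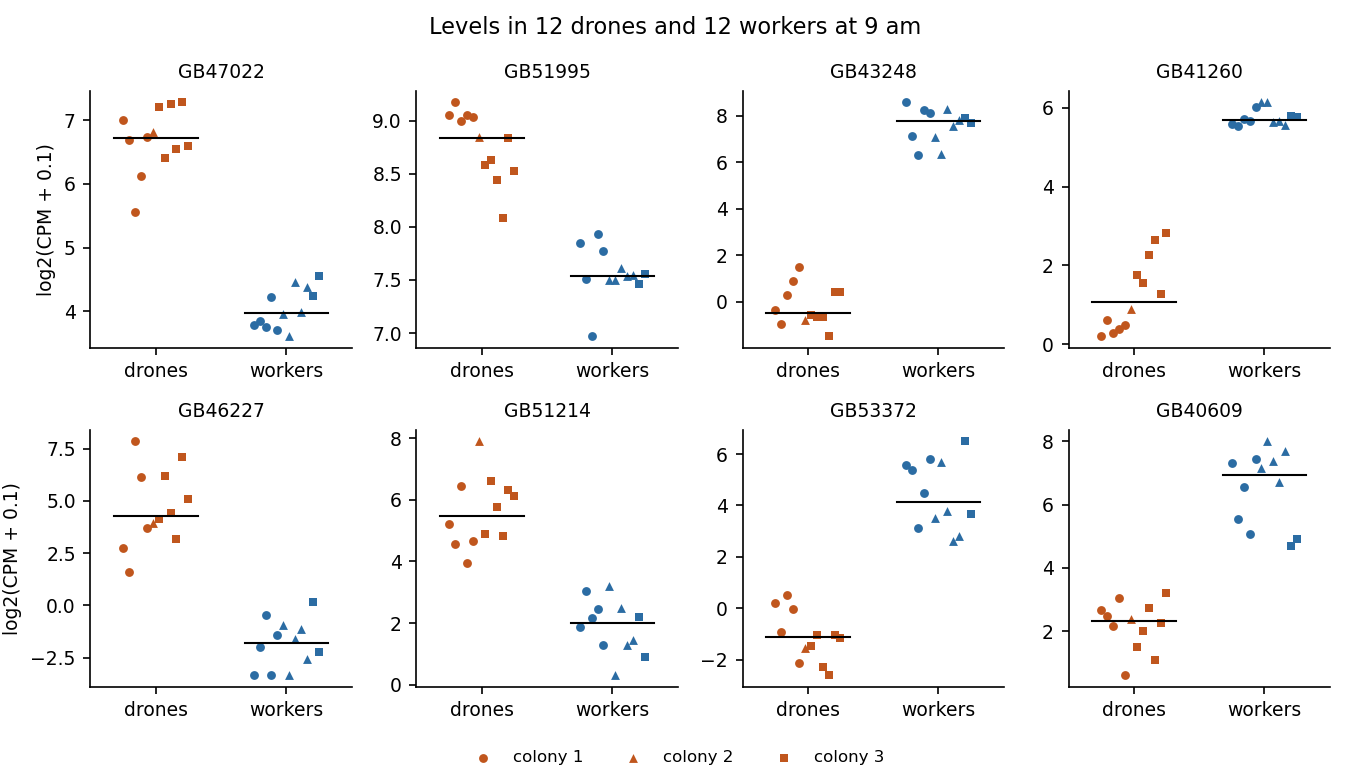
For 8 genes the level of each resting bee is plotted as log2(CPM + 0.1), drones and workers apart, with symbols for the colony and a line at the median of each sex. No drone overlaps a worker in any of the 8 genes, and in GB41260 the drones of colony 3 lie above those of colony 1.

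The genes at least 16-fold apart were of unlike kinds. Of the 15, 5 had no overlap between the sexes and 10 did. In GB44549 the overlap came with workers close to 0. In GB51223 it came from both sexes. Worker 9 had 50.8 CPM where the other workers had at most 5.46, and drones 1 and 9 had only 0.451 and 0.367 CPM. The SD of log2 CPM in the higher sex ran from 0.217, in GB41260, to 4.48, in GB44549, with a median of 2.43. GB44549 was between 0 and 4529 CPM in workers, with a median of 13.8, and at most 2.08 CPM in drones. Of the workers, 9 lay above all drones, and worker 8 had no read. On the drone side, GB50423 was between 7.89 and 4174 CPM in drones, with a median of 1545, and between 0.819 and 18.4 CPM in workers, with a median of 2.97. Drones 1 and 3 had 7.89 and 22.4 CPM, while the other drones had 227 or more. GB47546 was between 1.65 and 2793 CPM in drones, with a median of 273, and between 0.287 and 24.5 CPM in workers, with a median of 2.21.

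Several of these uneven genes were high in the same bees. The sets that follow were put together after the values had been seen and carry no test. GB44549, GB53576 and GB55207, all higher in workers, had the same 5 highest workers, namely 1, 2, 4, 5 and 12. Worker 5 was the highest in each, at 4529, 10820 and 482 CPM, and it is the bee that held the largest share of reads in worker genes. Workers 6 and 8 were among the lowest 3 in each. GB50423, GB47546, GB51223 and GB51306, higher in drones, shared drones 4, 7 and 10 among their 5 highest bees and drones 1 and 9 among their lowest 3. Another set of drone genes, GB53119, GB52023, GB46227 and GB53625, was highest in drone 3 each time and had drones 4 and 11 among the 5 highest. Drone 3 thus had 2285 CPM of GB53119, where the median drone had 83.8, but only 22.4 CPM of GB50423. Leaving out worker 5 moved the log2 differences of GB53576 and GB55207 from -6.30 and -4.11 to -5.13 and -2.92, and those of GB51306, GB51223 and GB47546 from 4.17, 5.93 and 6.48 to 6.27, 6.96 and 8.12. Without drone 3, GB53119, GB52023 and GB53625 moved from 7.60, 5.25 and 4.94 to 6.52, 4.53 and 3.85. Without drone 6, GB53576, GB55207 and GB51223 moved to -7.75, -5.80 and 6.53, and without worker 11 GB53119 moved to 8.60. GB55207 no longer passed without worker 12 (log2 difference -3.40, edgeR adjusted p = 0.0867). The identifiers carry no names here, so which cells or tissues these genes mark was not tested.

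**Figure D4:**
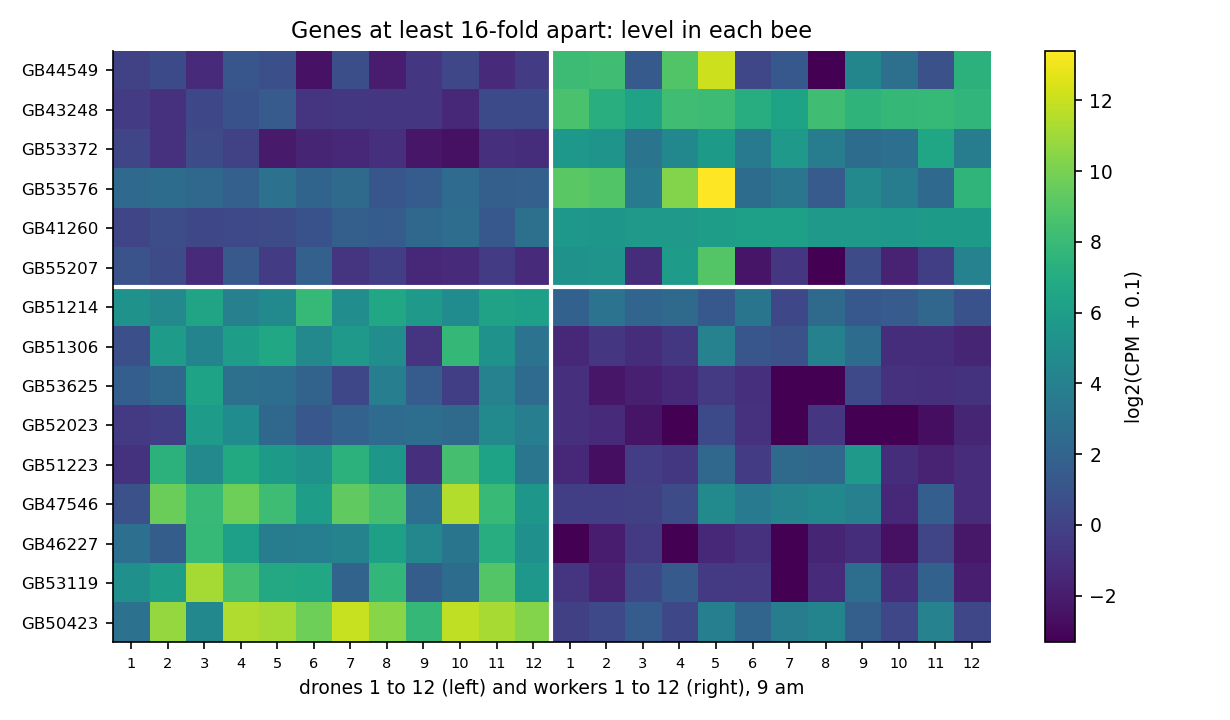
The level of the 15 genes at least 16-fold apart is shown for each resting bee as log2(CPM + 0.1), with genes in rows and bees in columns, drones left and workers right. GB43248, GB41260 and GB53372 are high in all workers, whereas GB44549, GB53576 and GB55207 are high in workers 1, 2, 4, 5 and 12 and low in others.

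Colony 1, with 5 bees of each sex, gave the comparison without colony differences. There 1826 of 10524 genes passed (17.4%), 1076 (10.2%) higher in drones and 750 (7.13%) in workers. Of the 1809 that were also tested in all 24 bees, 1495 were called in the same direction there, but the colony 1 bees are part of both. The bees of the other colonies are not. In colony 3, with 6 drones and 2 workers, 90.2% of the genes higher in drones in colony 1 had the same sign, whereas 63.7% of the genes higher in workers did, and 53.0% of the genes not called. The median log2 difference of these worker genes was -0.79 in colony 1 and -0.13 in colony 3. In colony 2, with 1 drone and 5 workers, 981 of 1066 drone genes and 690 of 743 worker genes (92.9%) had the same sign, against 73.3% of genes not called. These shares are descriptions across genes, which are not independent, and colony 3 rests on 2 workers and colony 2 on 1 drone. When each sequencing pool in turn was left out of the model, 84.2% to 96.2% of the genes called had the same sign in the 2 drones and 2 workers of that pool, against 61.8% to 69.6% of genes not called.

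The differences of resting bees were largely present in active bees as well. The afternoon comparison shares no bee with that of the morning, and 3726 of 10648 genes passed in it (35%), with 16.8% of those tested higher in drones and 18.2% higher in workers. Of 2628 genes called in the morning and tested at both times, 2522 had the same sign in the afternoon and 1787 (68.0%) passed in the same direction. Only 1 passed in the opposite one. Of the genes not called in the morning, 72.6% had the same sign and 22.1% passed in the same direction as their morning sign. Genes at least 2-fold higher in drones kept most of their size, with a median log2 difference of 1.34 in the morning and 1.11 in the afternoon, and 339 of 426 passed again. For those at least 2-fold higher in workers the medians were -1.39 and -1.21, and 95 of 141 passed again. Members of both sets were picked for large morning values, and how far that choice bears on the smaller afternoon medians was not tested. Across the 10500 genes tested at both times Pearson's r between the morning and afternoon differences was 0.80 and Spearman's rho 0.76, a description over genes that share colonies and pools between the times.

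**Figure D5:**
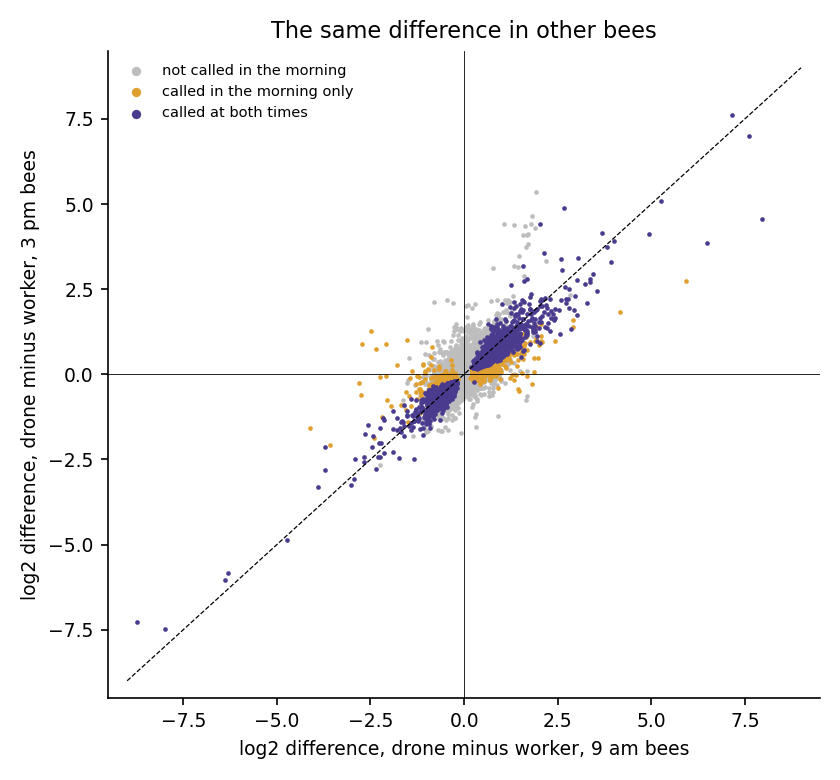
Each point is a gene tested at both times, with its log2 difference, drone minus worker, in resting bees on the horizontal axis and in active bees on the vertical axis; colours mark genes not called in the morning, called in the morning only and called at both times, and the dashed line marks equal values. Most genes at least 2-fold apart in the morning lie in the quadrants of equal sign, 418 of 426 for drones and 130 of 141 for workers.

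The 8 genes described by level above passed in both sets of bees. GB43248 had a log2 difference of -7.46 in the afternoon, GB41260 of -4.85, GB47022 of 3.07 and GB51995 of 0.87. For GB46227 it was 7.60, for GB51214 3.91, for GB53372 -6.03 and for GB40609 -3.30. The sexes did not overlap in the afternoon except in GB46227 and GB40609. There 11 of the 12 active drones lay above all active workers in GB46227, and 9 of the 12 lay below them all in GB40609. Of the 15 genes at least 16-fold apart, 12 passed in the afternoon and all 15 had the same sign. The 3 that did not pass were GB55207 (log2 difference -1.59, edgeR adjusted p = 0.182), GB51306 (1.83, 0.208) and GB51223 (2.73, 0.0692), all of which were uneven among the resting bees too. More genes passed in the afternoon than in the morning. The biological coefficient of variation was 27.7% in the afternoon and 33.8% in the morning, and whether this bears on the counts was not tested.

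A test of the change itself, in a model of all 48 bees, asked in which genes the sex difference was not the same at rest as in activity. It called 29 of 11167 genes (0.26%). In 21 of them (0.188%) the difference was more in favour of workers at rest than in activity, with a median log2 difference of -0.37 in the morning and 0.91 in the afternoon. In the other 8 (0.0716%) the medians were 0.099 and -0.44. These medians come from the model of 48 bees. In it all 21 lay on the worker side at rest, with log2 differences from -1.51 to -0.040, but they were picked for a change in that direction. GB50609 and GB54219, described below, were at -1.17 and -0.33 at rest in this model. In the fit of morning bees alone they were at -0.81 and -0.11, and within colony 1 at -0.16 and 0.054. Of the 28 genes tested in the morning bees alone 7 passed there, a share close to the 24.9% of all genes. Without colony 3 the test called 0 genes with edgeR, where 950 had an unadjusted p under 0.05, and no further tool was run. It called 9 to 16 genes without drone 6, 7, 8, 9, 10 or 12 or worker 8 or 9 of the morning, or without drone 2, 5, 6, 8 or 12 or worker 3, 6, 7, 11 or 12 of the afternoon.

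GB50609 changed most clearly, with a log2 change of -4.17 ± 0.67 (SE; edgeR adjusted p = 0.00151). At rest it was between 41.9 and 191 CPM in drones, with a median of 106, and between 76.2 and 1145 CPM in workers, with a median of 180. The resting sexes overlapped and did not pass (log2 difference -0.81 ± 0.38, edgeR adjusted p = 0.12), and within colony 1 alone the difference was -0.16. GB54219 changed by -2.10 ± 0.36 (edgeR adjusted p = 0.00223). It was between 314 and 421 CPM in resting drones and, apart from worker 6 with 874, between 313 and 480 CPM in resting workers, with medians of 355 and 357. Worker 6 was also the bee with 1145 CPM of GB50609.

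GB44887 and GB45222 changed the other way, by 0.94 ± 0.20 and 0.70 ± 0.15 (edgeR adjusted p = 0.0332 and 0.0345), and passed in 36 and 33 of the 48 fits with 1 bee removed. Resting bees had similar levels of both, with medians of 6.81 CPM in drones and 8.35 in workers for GB44887, and of 66.9 and 81.3 CPM for GB45222. Neither passed among resting bees alone. The 1 gene called in opposite directions at the 2 times was GB42880, with medians of 23.3 CPM in drones and 20.5 in workers at rest, and 19.3 and 22.1 CPM in active bees. Its log2 difference was 0.26 ± 0.094 (edgeR adjusted p = 0.0438) at rest and -0.24 ± 0.086 (0.0333) in activity, and the change was 0.45 ± 0.11 (0.0454). The sexes overlapped at both times, and the difference at rest passed in only 5 of the 24 fits that left out a bee.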

How the data were processed

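Members, gene lists and tests were chosen with earlier results of these data known. The authors deposited raw read counts for each gene. The submitters' processing notes name, without role or order, HTSeq 0.5.4, TopHat2 2.0.10, Trimmomatic 0.30, CASAVA 1.8.2, edgeR 3.4.2 and SAMtools. The names of the deposited files give the assembly Amel 4.5 and the gene set OGS 3.2. Libraries were made with a directional kit, per the labels' protocols, while strand setting and counting mode are not given in the sources used. Reads of overlapping or near-identical genes may therefore be split or lost. Each file holds 15314 identifiers and 5 summary entries. The summary entries entered the library measures but not the library sizes or the gene tests. Reads outside genes were 27.3% ± 1.66 of entries in drones and 27.6% ± 2.01 in workers (SD, n = 12). None of the 11 gene lists prepared could be matched.

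Genes with few reads were removed with filterByExpr by group, libraries were scaled by TMM, and edgeR 4.0.16 in R 4.3.3 fitted a quasi-likelihood model with sex and colony to the 24 morning libraries. Adjusted p values are 2-sided with Benjamini-Hochberg adjustment over all genes of that fit, at a threshold of 0.05. Afternoon bees, colony 1 bees and all 48 bees (for the change, morning minus afternoon) had fits of their own. SE values come from dividing the log2 difference by the square root of F, and CPM is relative to the scaled library size. The genes given by identifier were, among genes called whose mean log2 CPM reached 1, the 2 of lowest p in each direction for the morning and for the change, and, of the non-overlapping genes not already taken by p, the 2 with the largest difference in each direction. GB42880, the genes at least 16-fold apart and their sets were chosen after their values were seen. Library measures were tested with 100000 permutations within colonies. Bees from the same colony are not fully independent, as they have 1 mother and 1 hive. On simulated counts for the morning comparison (10525 genes) the test found 24% of the genes given a log2 change of 0.5, 63.3% at 1 and 98.0% at 2, with 2.84% of calls false, and for the change (11101 genes) 18%, 60% and 94%, with 3.82% false. The simulated counts held no colony effect and no variation shared among the genes of a bee, so these shares may not hold for the real calls. Alternatives used limma 3.58.1, DESeq2 1.42.0 and sva 3.50.0.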

Additional observations from a re-analysis of the deposited data

Results flagged for a closer look

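In 29 genes the difference between drones and workers was not the same at rest as in activity, where edgeR tested the change itself. Of the genes given by identifier, the change of the log2 difference (morning minus afternoon) was -4.17 in GB50609, -2.10 in GB54219, 0.94 in GB44887, 0.70 in GB45222 and 0.45 in GB42880. In the fit of morning bees alone, the sexes differed by less than 1.5-fold in the 3 genes with a positive change and in GB54219, and by 1.76-fold in GB50609. Among active bees the log2 differences of the 3 were -1.30 in GB44887, -0.92 in GB45222 and -0.24 in GB42880. In GB50609 and GB54219 active drones were spread widely, between 127 and 6001 CPM and between 314 and 3945 CPM, and 9 of the 12 lay above all active workers in each. The levels divided by colony only in part, which was seen in the values and not tested. All 8 active drones of colony 3 were high (1557 to 6001 CPM of GB50609), both of colony 2 were low (134 and 127 CPM), and those of colony 1 had 159 and 2225 CPM. Without colony 3 the changes were -2.52 in GB50609 and -0.97 in GB54219, and neither passed (edgeR adjusted p = 0.546 and 0.562).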

How the results depend on the processing

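Alternatives with 2 surrogate variables, without a pool, or without the drone and worker farthest from their groups were chosen after seeing the data; the cause of each shift below was not tested. The count of genes called among resting bees was 690 without colony 1 and 4123 with 2 surrogate variables. Genes higher in drones were 488 without colony 1, and genes higher in workers 202 without colony 1, 1777 with 2 surrogate variables and 1655 in 1 model of 48 bees. At least 2-fold higher in drones were 242 without colony 1 and 280 without pool 6, and at least 2-fold higher in workers 225 with no filter, 81 without colony 1, 293 without colony 3 and 222 without pool 1. Morning calls that passed in the afternoon were 513 without colony 1, and the afternoon count was 2444 without colony 3. The change count was 65 with DESeq2, 10 with limma-voom, 18 without colony 1, 0 without colony 3 with edgeR (950 unadjusted), 13 after thinning to equal depth and 121 with 2 surrogate variables.

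Leaving out single bees gave 2165 to 2880 morning calls, 1305 to 1551 in drones and 719 to 1385 in workers, 334 to 443 and 138 to 196 at least 2-fold apart, 1472 to 1975 passed again, 1218 to 2529 in colony 1 and 9 to 39 for the change. Replicate numbers did not pair the bees: same-numbered bees correlated from -0.38 to 0.46, above 0.1 in 6 of 12 pairs, and 4 of 24 bees correlated best with their own number. With the replicate block 2087 genes were called in the morning, 1604 in the afternoon, 987 at both and 12 for the change. With labels permuted over all bees, the 10-gene share (0.516 points higher in drones) and reads with several alignments (0.189 points) passed, both at an adjusted permutation p of 0.0411. Genes detected at equal depth, 16.3 more in drones, were -136 in colony 1 alone (exact permutation test, adjusted p = 0.435). The 8 genes described by level passed in the same direction under each of 39 alternatives, GB42880 at rest under 10 of 39. Depth limits genes of few reads, where small differences are not detectable.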

Other observations

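The largest axis of variation among the 24 resting bees was not sex. The first principal component of log2 CPM took up 29.7% of the variance. Of that component's variance sex explained 19.9%, colony 5.56% and pool 13.4%. The second component took up 20.2%, and sex explained 69.0% of it. On this second axis the drones lay between 7.49 and 61.8 and the workers between -43.9 and 4.04, without overlap. Resting drones and workers were about equally variable, with a median SD of log2 CPM per gene of 0.376 in drones and 0.369 in workers. The distance of a bee from its group was taken as the root mean square, over genes, of its log2 CPM minus the group median. It was 0.575 ± 0.124 (SD, n = 12) in drones and 0.524 ± 0.126 in workers (permutation test within colonies, 2-sided p = 0.317).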
